A study of Bos taurus with 47 samples.

Results

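The 200 gene identifiers described here stood lowest in skeletal muscle relative to all other bovine tissues sampled. They were chosen from 24616 identifiers in 47 RNA sequencing libraries of Holstein cattle, by the measured values themselves. The rule set a pair of conditions: the highest of the 4 muscle libraries had to lie below the lowest of the 43 other libraries, and the mean of the 14 non-muscle label means had to reach 10 FPKM, the fragments mapped to a transcript divided by its length in kilobases and by the library's fragments in units of 1000000. Of the 20574 identifiers above 0 in any library, 1232 (5.99%) met the first condition. Both conditions were met by 921, which is 11.6% of the 7959 identifiers with such a mean. The 200 with the largest ratio of (non-muscle mean + 1) to (muscle mean + 1) are the members, and rank 1 is the largest ratio. The remaining 721 ranked behind them.

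Across 15 labels, 10 tissues were sampled in the same 4 animals, of which 2 were males (called A and B here) and 2 were cows, called lactating and dry after their mammary gland labels. Those tissues were muscle, heart, spleen, lung, liver, kidney, ileum, rumen, frontal cortex and adipose tissue. Ovary and uterus came from both cows, the mammary gland was sampled once in lactation and once dry, and a further male gave 1 library of lymphocytes. Neither ages nor treatments are given in the labels. The FPKM of a library summed to 576130 to 964931, and the depth in fragments is unknown. The table does not pair identifiers with gene names, so muscle could not be checked against its marker genes. All 4 muscle libraries had their closest match within muscle (lowest Spearman correlation across genes 0.965, against at most 0.918 with any library of another label). Members are called by rank, and 4 are named by identifier.

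Skeletal muscle is built of long fused fibres with many nuclei, packed with contractile proteins, and the fibres supply most of its RNA. Blood vessels, connective tissue, nerves and scattered immune cells lie between the fibres. Heart muscle is striated too, but its muscle cells are separate and sit beside dense vessels and many connective tissue cells. Spleen, ileum and lung hold many immune cells, and lymphocytes are such cells themselves. In bulk tissue, fewer cells of a type and less RNA per cell cannot be told apart.

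The members were low in all muscle libraries, and by how much is a description of what the rule used. The muscle means of the members had a median of 1.31 FPKM and ran from 0 to 343, while their non-muscle means had a median of 36.7 FPKM and ran from 11.5 to 4919. In muscle, 83 members had a mean under 1 FPKM and 21 a mean of at least 10. The ratio had a median of 14.1 and ran from 10.4 to 64.6. At the boundary it was 10.44 at rank 199 and 10.40 at rank 200, against 10.37 at rank 201 and 10.29 at rank 202.

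Separation from the next library was often narrow. The lowest non-muscle library lay at a median of 1.5 times the highest muscle library, at least 2 times for 51 members, and under 1.1 times for 17. That lowest library was a heart library for 84 members, that of the lactating gland for 28, a frontal cortex library for 27 and a kidney library for 21. Among identifiers with a non-muscle mean of at least 10 FPKM, 982 others had a ratio at least as large as rank 200 and overlapped another library. Of these and the members together, 123 had a larger ratio than rank 1, so the rule favours identifiers that every other library kept above muscle.

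**Figure D1:**
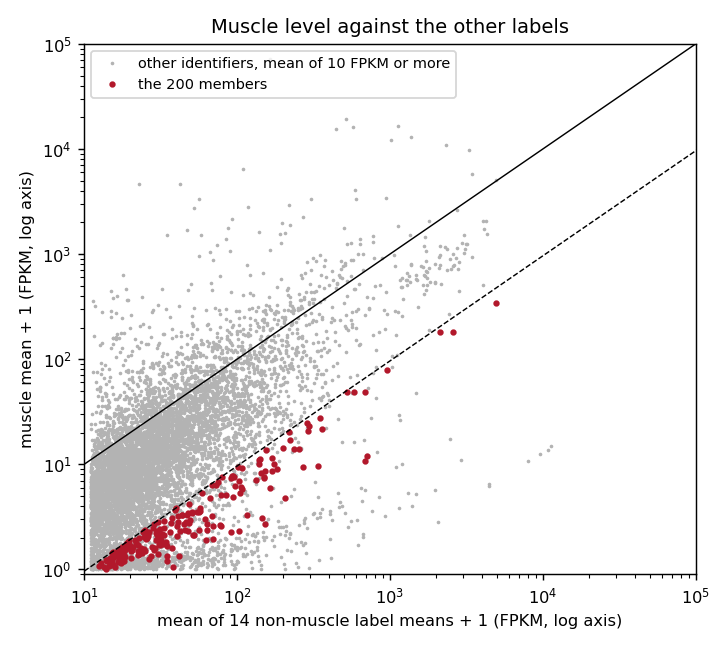
Muscle mean against the mean of the 14 non-muscle label means, each plus 1 FPKM and on log axes, for identifiers with a non-muscle mean of at least 10 FPKM. Red points are the 200 members, the solid line marks equal levels and the dashed line the ratio of rank 200 (10.4). Grey points under the dashed line overlapped a library of another label.

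The leading pair was most abundant in spleen and lung. ENSBTAG00000011193, rank 1, had 8.43, 12.3, 9.13 and 8.74 FPKM in the muscle of male A, male B, the lactating cow and the dry cow. In spleen, in the same order, it had 4354, 4664, 5528 and 5192 FPKM, and in lung 2035, 3314, 3487 and 2536. Frontal cortex was its lowest other label, between 13.8 and 24.8 FPKM, close above muscle. ENSBTAG00000011196, rank 2, had 9.55, 15.3, 9.42 and 9.40 FPKM in muscle, against 3935 to 5135 FPKM in spleen and 2075 to 3573 in lung. Male B had the highest muscle value of both. Their log2 levels correlated at 0.990 (Pearson) over the 47 libraries, which share animals and tissues. The files do not say what either encodes.

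Members of nearly the same depth of depletion were abundant in quite different places. Rank 3 was a frontal cortex gene, with 1302, 1287, 1476 and 1792 FPKM there, and had 1.65, 1.001, 2.17 and 1.94 FPKM in muscle (male A, male B, lactating cow, dry cow). It also had 668 FPKM in the ovary of the lactating cow and 49.2 in that of the dry cow. Rank 4 was highest in lymphocytes, at 1106 FPKM, with 474 to 558 FPKM in spleen and 2.24, 1.89, 1.92 and 2.19 in muscle. Rank 6 was likewise highest in lymphocytes, at 1253 FPKM, and had 4.31, 3.59, 3.27 and 3.91 FPKM in muscle. Its 4 ileum libraries ranged from 263 FPKM in the lactating cow to 892 in male A.

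Kidney, ovary and the dry gland each led for one of the next members. Rank 10 was a kidney gene with 2463, 2643, 2238 and 1924 FPKM there, and 6.63, 12.7, 7.997 and 6.81 FPKM in muscle. Its ileum libraries were far apart, from 143 FPKM in male A to 1369 in the lactating cow. Rank 11 had 1458 FPKM in the ovary of the lactating cow and 233 in that of the dry cow, against 2.33, 3.095, 1.81 and 1.93 FPKM in muscle. Rank 9 had 296 FPKM in the dry gland, 75.6 to 104 in frontal cortex and 37.5 to 90.1 in rumen, and 0, 0.110, 0.0388 and 0.0970 FPKM in muscle.

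The most abundant members lay deep in the list. Rank 96 had the highest mean of all, with 12224 FPKM in uterus (mean of 2 libraries), 1298 in heart (mean of 4) and 309, 389, 371 and 304 FPKM in muscle. Its lowest library outside muscle had 941 FPKM. Rank 93, highest in spleen at a mean of 7776 FPKM, had 203, 234, 156 and 123 FPKM in muscle, and its lowest library elsewhere had 257. At the other end, rank 108 was listed at 0 in all 4 muscle libraries, and 5 members were listed at 0 in at least 1. An exact 0 can be a failed estimate.

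**Figure D2:**
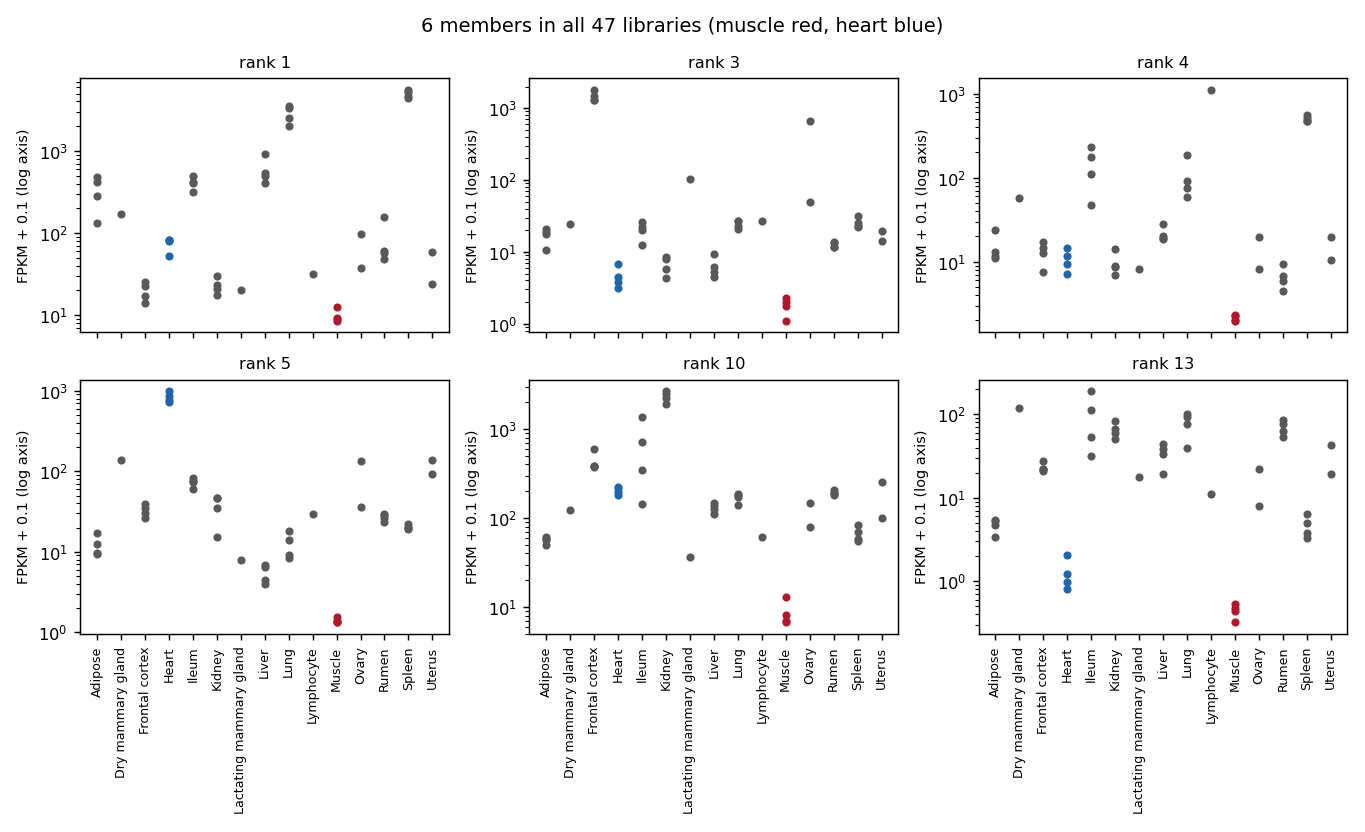
FPKM plus 0.1 on log axes for the members of rank 1, 3, 4, 5, 10 and 13 in all 47 libraries, by label, 1 point per library (muscle red, heart blue, others grey). The 4 muscle points lie below all others in each panel, which the rule requires. The highest label differs: spleen for rank 1, frontal cortex for rank 3, lymphocytes for rank 4, heart for rank 5, kidney for rank 10 and the dry gland for rank 13.

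Lymphocytes and spleen were the most common site of highest level. Lymphocytes were the highest label for 81 members (40.5%) and spleen for 38 (19.0%), against 19.3% and 4.67% of the 7959 identifiers with a non-muscle mean of at least 10 FPKM. For 72 of these 119 members the 2 labels were the top 2. Lung, rumen and liver each led for 11 members, ileum for 10, frontal cortex and ovary for 9 each, kidney and uterus for 6 each, the dry gland for 4, heart for 3 and the lactating gland for 1. Adipose tissue led for none, against 3.67% of the wider set. The ratio ranks by a mean over labels, so a member with one very high label is favoured by the rule. Choosing by the median of the label means picked 98 of the same 200.

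Profiles over the 14 non-muscle labels were alike for many members. The Spearman correlation between 2 members had a median of 0.481, and of 0.745 within the 119, against 0.191 between identifiers with a non-muscle mean of at least 10 FPKM. For 118 members another member lay at 0.9 or above. The same count was not made for other identifiers, so this one cannot be read as particular to the members. All these correlations are descriptions over labels that share animals, and the 119 were grouped on the same values. At least 10 FPKM in all 14 labels was found for 52 members, while the median member reached that level in 9.

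Summed over the members, muscle was lowest. The rule fixes that order for the sums, so the shares describe only its extent. The 200 held 0.211% ± 0.023 of the FPKM in muscle (SD, n = 4), with 0.212%, 0.242%, 0.206% and 0.185% in male A, male B, the lactating cow and the dry cow. Heart had 0.831% ± 0.234 (n = 4) and the lactating gland 0.758%. Frontal cortex, rumen, liver, adipose tissue, kidney, uterus and ovary had means of 2.03% to 3.17%, the dry gland 4.16%, ileum 5.83% ± 0.516, lung 6.32% ± 0.524, spleen 7.75% ± 0.411 (n = 4 each) and lymphocytes 7.75%. The shares rest on a library's total, of which 10 genes held 33.8% ± 0.180 in muscle, 22.6% ± 2.35 in heart and 75.6% in the lactating gland. Among the FPKM outside each library's 10 most abundant genes, the members held 0.319% in muscle, 1.07% in heart and 2.16% in the lactating gland.

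**Figure D3:**
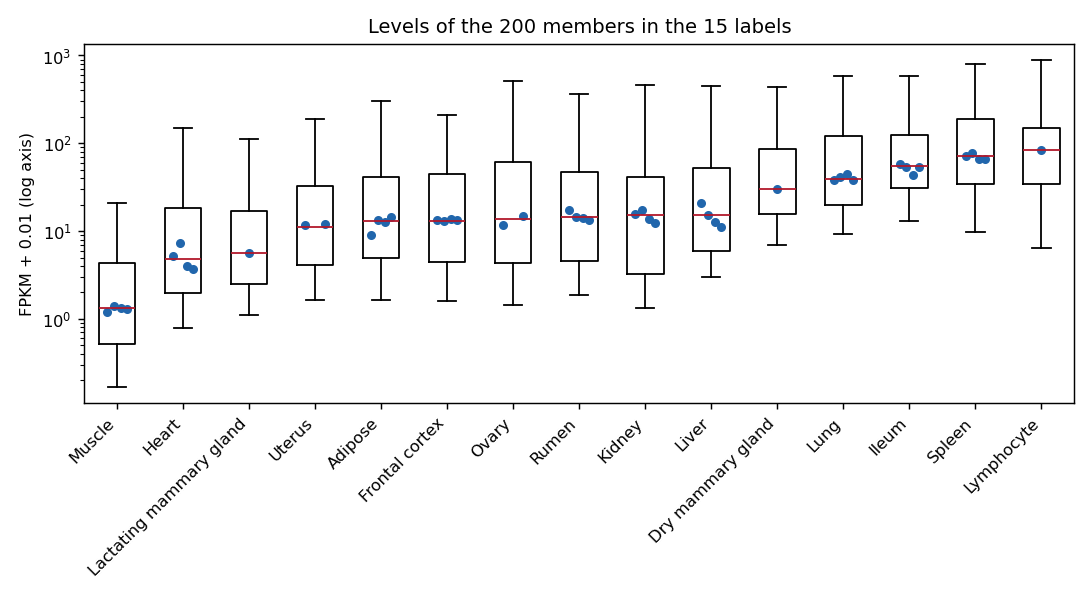
Levels of the 200 members in the 15 labels, as FPKM plus 0.01 on a log axis. Boxes span the quartiles of the members' label means with the median in red, whiskers the 5th to 95th percentile, and each blue point is the median member of 1 library. The muscle libraries sit between 1.19 and 1.41 FPKM, below the heart libraries at 3.71 to 7.27 FPKM, an order that the rule fixes.

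The rule did not rank differences among the non-muscle labels, but it used the same libraries. It needs a mean of 10 FPKM and a level above muscle in each, and its ratio rises with a high level in any label. The calls below are therefore not independent of how the members were chosen. A choice made without lymphocytes and spleen picked 139 of the 200 again. Each of 11 labels with replicates was compared with the mean of the other 13 non-muscle labels on log2(FPKM + 1). A call needed a limma adjusted p under 0.05 (Benjamini-Hochberg over 16582 genes) and a difference of at least 1, or 2-fold. All 200 members passed the filter on low values. The 11 comparisons share libraries, since each label is among the 13 of the others.

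Heart, the other striated muscle, was called lower for 175 members (87.5%) and higher for 3 (1.5%). Over all genes 26.9% were lower and 9.06% higher, and 33% and 13% among those with a non-muscle mean of at least 10 FPKM. The members' median difference was -1.81, against -0.54 for all genes tested. Of the 721 identifiers that ranked behind the members, 426 (59.1%) were lower in heart, with a median of -1.12. The 22 members without a call had differences on both sides of 0, 18 below and 4 above. Heart lay below every other non-muscle library for 10 members (5.0%), against 3.18% of genes with such a mean and 2.27% of all genes tested.

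Muscle was also well below heart, which is part of the rule. The members' muscle mean was a median of 25.3% of their heart mean (quartiles 19.6% and 30.3%), against 62.5% for identifiers with a non-muscle mean of at least 10 FPKM. Heart was the lowest of the 14 labels for 58 members (29%, against 10.8% of identifiers with such a mean) and the lactating gland for 73 (36.5%, against 48.6%).

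Against this pattern, 3 members were called higher in heart than the mean of the other 13 labels. ENSBTAG00000001086, rank 5, had 978, 720, 870 and 759 FPKM in the heart of male A, male B, the lactating cow and the dry cow, and 1.23, 1.28, 1.24 and 1.44 FPKM in muscle. Its mean over the 13 other labels was 45.6 FPKM, a log2 difference of 4.79 ± 0.22 (SE, limma adjusted p = 3.614e-19), and all 4 heart libraries lay above every other library. Rank 43 had 234 to 263 FPKM in heart, a mean of 16.1 over the 13 labels and 0.820 in muscle. Rank 58 had 142 to 163 FPKM in heart, 40.6 over the 13 labels and 1.93 in muscle. Its frontal cortex libraries, at 115 to 146 FPKM, overlapped those of heart. By label means, these 3 were highest in heart and lowest in muscle. Heart is part of the mean that the rule ranked, so a high heart level raised their place in the list. Their heart calls are not independent of that choice.

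The largest deficit in heart belonged to ENSBTAG00000000253, rank 13. It had 1.12, 1.97, 0.706 and 0.872 FPKM in heart, between muscle at 0.380, 0.432, 0.341 and 0.222 FPKM and all other labels, which had a mean of 43.6 FPKM. The log2 difference of heart was -3.74 ± 0.28 (SE, limma adjusted p = 1.018e-13). Its highest label was the dry gland at 119 FPKM, and its ileum libraries ran from 31.8 FPKM in male A to 188 in the lactating cow. For rank 2 the heart difference was -1.03 ± 0.25 (SE, limma adjusted p = 0.0004453), a call that was not made without the dry cow (-0.83). Rank 1, at -0.93 ± 0.27 (SE, limma adjusted p = 0.002118), fell short of the 2-fold minimum. It passed with the animal as a replicate block and no lymphocyte library (-1.11), and in 5 other settings, within a range of -1.89 to -0.75 over all settings.

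**Figure D4:**
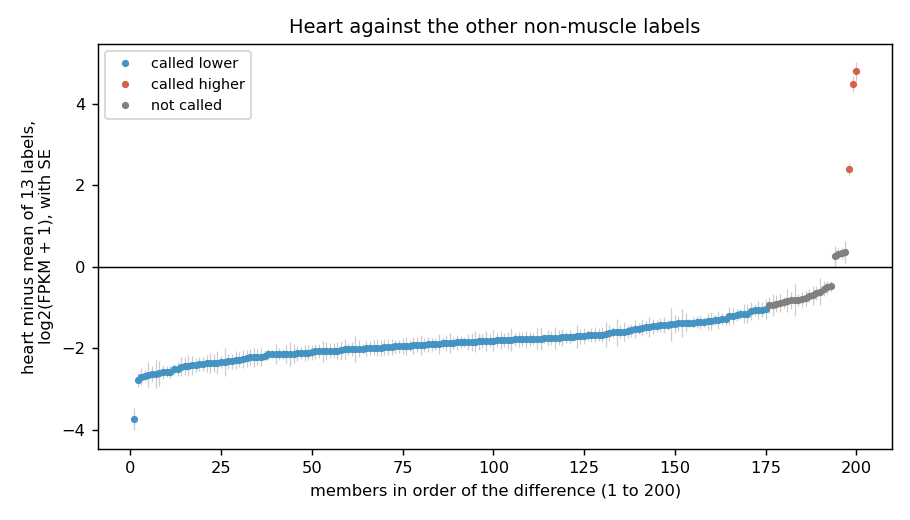
Difference between heart and the mean of the 13 other non-muscle labels for each of the 200 members, in order, on log2(FPKM + 1) with its SE. Blue points were called lower (175), red points higher (3) and grey points not called (22).

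Spleen, ileum and lung were the labels where members were mostly higher. Spleen was called higher for 141 members and lower for 10, against 14.8% and 10.7% of genes with a non-muscle mean of at least 10 FPKM (14.1% and 7.63% of all genes). Ileum, the far end of the small bowel, was higher for 140 and lower for 0, against 17.1% and 3.53% (17.4% and 2.1% of all genes). With quantile normalization 5 members were lower in ileum. Lung was higher for 116 and lower for 3, against 18.9% and 4.66% (16.2% and 2.84% of all genes), with 5 lower without the lactating cow and 9 after quantile normalization, which also gave 16 lower in spleen. The counts given here under other settings are of members only, without the shares of all genes. They cannot be read as particular to the members. In the main setting the median differences were 2.08, 1.42 and 1.17 on the log2 scale, against 0.16, 0.26 and 0.20 for all genes tested.

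Of the remaining 7 labels, 6 had more lower than higher members under every scaling tried, and liver had more lower members except after quantile normalization. With a minimum difference of 2 on the log2 scale, ovary (4 lower, 8 higher), uterus (3 and 5) and liver (12 and 17) had more higher members. Counts under other settings in this paragraph are of members only. The shares of all genes under those settings are not given here, so such counts cannot be read as particular to the members. Kidney was lower for 103 and higher for 30, against 9.29% and 15.3% of all genes. Uterus was lower for 99 and higher for 12 (6.67% and 10.4% of all genes, 10.1% and 12.7% of those with a non-muscle mean of at least 10 FPKM), frontal cortex lower for 94 and higher for 29 (14.4% and 22.3%). Rumen, the fermenting forestomach, was lower for 88 and higher for 33 (13.3% and 8.57%). Ovary was lower for 86 and higher for 17 (6.54% and 9.05% of all genes, 9.03% and 12% of the more abundant). Adipose tissue was lower for 59 and higher for 5 (6.42% and 9.43% of all genes, 8.66% and 12% of the more abundant). Without the libraries that lack traces of liver and rumen genes, defined below, the lower members were 57 in uterus and 41 in ovary. In adipose tissue the higher members were then 3, and they were 2 without the lactating cow, 7 without male A and 9 after rescaling each library to the same sum.

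Liver was lower for 50 members (25%) and higher for 26 (13%), against 29.5% and 7.95% of all genes and 37.8% and 10.9% of those with a non-muscle mean of at least 10 FPKM. After quantile normalization liver was lower for 28 members and higher for 36, so that the balance turned round, and the median moved from -0.49 to -0.04. Of the 16470 genes tested under that scaling, 1923 were lower and 1860 higher.

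**Figure D5:**
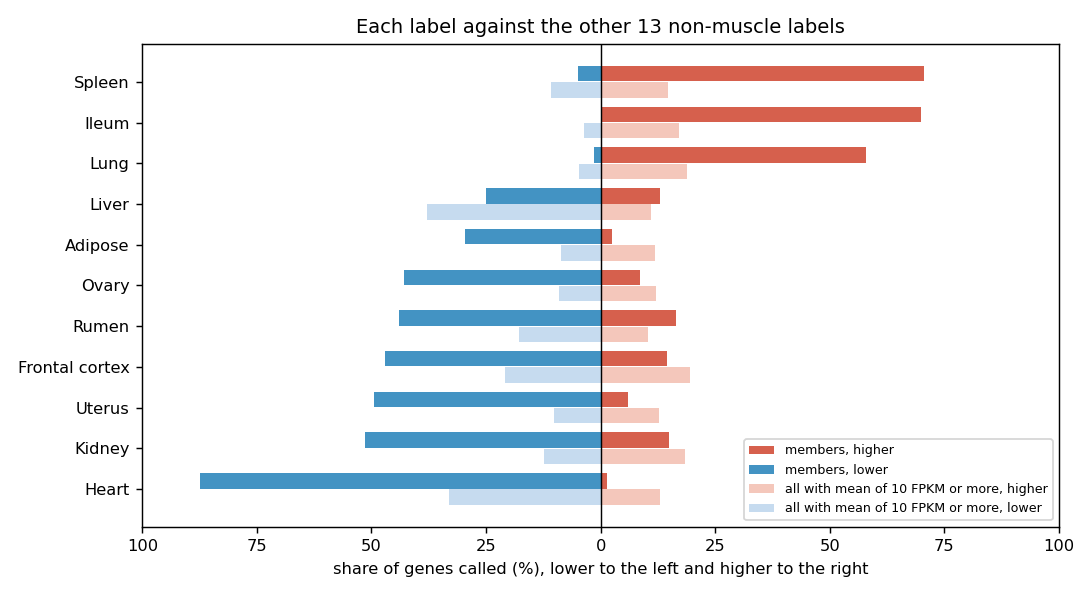
Share of the 200 members (dark bars) and of all genes with a non-muscle mean of at least 10 FPKM (pale bars) called lower (left) or higher (right) in each of 11 labels against the other 13 non-muscle labels. Members are called lower in heart for 87.5% against 33%, and higher in spleen, ileum and lung for 70.5%, 70% and 58% against 14.8%, 17.1% and 18.9%.

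The 119 members with their highest level in lymphocytes or spleen were compared with the other 81, a grouping made from these values. Heart was lower for 107 of the 119 (89.9%) and for 68 of the 81 (84.0%). Ileum was higher for 102 (85.7%) and for 38 (46.9%), and lung for 84 (70.6%) and for 32 (39.5%). Kidney was lower for 84 (70.6%) of the first group and for 19 (23.5%) of the second, and higher for 8 and 22. The groups' difference was not tested.

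The median level of the first group was compared across labels with that of lymphocyte genes outside the members. The group is not one of lymphocyte genes throughout, since 38 of it were highest in spleen, and ranks 1 and 2 had 31.9 and 34.7 FPKM in lymphocytes. As a marker of lymphocytes that needs no names, 147 genes outside the members were taken whose lymphocyte level was at least 1 FPKM and exceeded each other label's mean 4-fold or more. Their sum was 9214 FPKM in lymphocytes, 1703 ± 138 in spleen, 1059 ± 368 in ileum, 774 ± 67.6 in lung, 124 ± 38.9 in heart and 61.7 ± 4.45 in muscle (SD, n = 4 each), the lowest of the 15 labels. The median of the 119 members over the same labels was 109 FPKM in lymphocytes, 110 in spleen, 51.3 in ileum, 36.1 in lung, 4.06 in heart and 1.05 in muscle. Over the 14 non-muscle labels the 2 measures had a Spearman correlation of 0.908, and of 0.890 without lymphocytes. For the other 81 members it was 0.560. Labels share animals, and the 119 were grouped by lymphocytes and spleen, which fixes part of this. The 147 genes in muscle stood at 49.8% of their heart sum. The part of lymphocyte RNA in the members' levels was not tested.

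Low levels of genes restricted to another tissue were read beside values this low. The source of these traces was not tested. Genes restricted to liver (18) or rumen (10), with at least 2000 FPKM there and 100 times every other label, were traced in all libraries as a median share of their home level. It reached 50 ppm (parts in 1000000) for either set in 37 libraries, the 4 of muscle included, and for neither in the other 10, namely the lymphocytes and 9 libraries of the lactating cow. In muscle, the liver genes stood at 1340, 149, 445 and 89.4 ppm of their liver level in male A, male B, the lactating cow and the dry one. The rumen genes stood at 303, 182, 229 and 192 ppm of their rumen level. The members' muscle mean was a median of 7851 ppm of their highest label mean, and lay under 1340 ppm for 9 members. How much of a member's muscle level such traces make up was not tested.

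The rule was also applied without each animal in turn, and the list so chosen was read in the animal left out. Without male A, 200 identifiers were chosen from the others, and in male A muscle was the lowest of its 10 tissues for 197 of them (98.5%). It was so for 192 (96.0%) in male B, and for 193 (96.5%) in the dry cow and 181 (90.5%) in the lactating cow among their 13 tissues. Of all identifiers with a non-muscle mean of at least 10 FPKM, muscle was the lowest tissue for 39.5%, 39.6%, 33.4% and 22.6% in those 4 animals. The median ratio in the left-out animal was 14.3, 14.3, 13.9 and 12.3, against 2.74, 2.66, 2.78 and 2.58. These lists held 186, 177, 175 and 162 of the 200 members, without male A, male B, the dry cow and the lactating cow.

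The 4 muscle libraries are values the rule used, and its cap on the highest of them limits their spread, so their variation is a description. The median member had 1.19, 1.41, 1.33 and 1.29 FPKM in male A, male B, the lactating cow and the dry one. The coefficient of variation of a member over the 4 muscle libraries had a median of 21.5%, against 19.7% for 4147 other genes between 1 and 5 FPKM in muscle. In heart the members' median was 31.7% and in adipose tissue 30.1%, and in spleen 13.7%. Male B had the highest of the 4 muscle values for 81 members (40.5%) and the dry cow for 28 (14.0%), against 24.0% and 23.0% of other identifiers with a non-muscle mean of at least 10 FPKM.

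Males and females were compared with 2 animals on each side. The rule did not use sex, but it used the muscle values. Its cap on the highest muscle library limits differences between animals there, so the choice itself works against calls in muscle. No member was called between males and females in muscle by limma (adjusted p under 0.05), where 0.382% of all genes were higher and 0.212% lower in males. On log2(FPKM + 1), differences shrink near 0 FPKM. As 83 members had a muscle mean under 1 FPKM, the lack of calls says little about them. Without adjustment, 5 members had a p under 0.05, against 1139 of 16503 genes. With a pseudocount of 0.1, and without the dry cow, 1 member was called. Shares of all genes under other settings are not given here. Both males lay above both females for 46 members (23.0%) and both females above both males for 20 (10%), against 16.4% and 17.1% of genes. The smallest p was that of rank 38, with 5.01, 6.26, 1.66 and 4.43 FPKM in male A, male B, the lactating cow and the dry cow (0.80 ± 0.25 on the log2 scale, SE, limma adjusted p = 0.2454). Set against the mean male minus female difference of 9 other tissues, 0 members were called in muscle by limma (5 at an unadjusted p under 0.05), against 0.158% and 0.151% of genes, and 1 without the dry cow.

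In other tissues the members' calls by sex changed with the animals used. Shares of genes are given for the main setting only, so totals under other settings cannot be read as particular to the members. Heart had 11 members (5.5%) higher in males and 0 lower, against 3.09% and 0.218% of genes. Among genes with a non-muscle mean of at least 10 FPKM, 4.76% were higher and 0.201% lower. Of the 721 identifiers ranked behind the members, 9.02% were higher in males, a larger share than among the members. The members' total was 23 without male A, 1 without male B, 1 without the lactating cow and 0 without the dry cow. It was 0 with quantile normalization. By limma, 69 of the 200 members had an unadjusted p under 0.05 in heart, as had 3262 of 16503 genes. The 147 lymphocyte genes summed to 147 and 166 FPKM in the hearts of males A and B, and to 91.8 and 89.7 in those of the lactating and the dry cow. Their part in the heart calls was not tested. Ileum had 37 higher and 20 lower members (15.3% and 9.02% of genes), with totals of 18, 57, 13 and 81 without male A, male B, the lactating cow and the dry cow. Adipose tissue had 8 higher and 10 lower (5.13% and 6.59%), with totals of 9, 29, 9 and 7 in that order. Kidney had 2 higher members (0.933% of genes higher, 0.248% lower) and rumen 1 (0.206% and 0.164%). In liver, lung, spleen and frontal cortex limma called 0 members, and 56, 20, 22 and 6 had an unadjusted p under 0.05, as had 1564, 2421, 1814 and 1044 of the 16503 genes. The genes higher and lower in males there were 0.327% and 0.164% in liver, 1.3% and 0.691% in lung, 0.594% and 0.43% in spleen, and 0.206% and 0.0424% in frontal cortex. With 2 animals on each side, p-values rest on the spread between animals of one sex, pooled over tissues.

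In the mammary gland, with 1 library per stage, the 10 most abundant genes held 75.6% of the FPKM in lactation and 8.08% when dry. Of the 200, 177 (88.5%) were at least 2-fold lower in the lactating than in the dry gland and 4 at least 2-fold higher, against 76.8% and 1.9% of 13002 genes with 1 FPKM in either gland. The members' median log2 ratio was -2.29 (quartiles -2.77 and -1.67), against -1.50 for all these genes. After quantile normalization the medians were -0.73 and -0.03, and 82 members were at least 2-fold lower and 16 higher, beside 1842 and 1416 of the 13002 genes. With 1 library on either side, lactation and the individual cow cannot be told apart.

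The depletion itself depended on scaling in its extent. On the log2(FPKM + 1) scale the members' muscle level lay a median of -2.995 from the mean of the other labels (-4.13 to -1.87). That median was -3.16 after rescaling each library to the same sum and -2.17 after quantile normalization, beside -0.76, -0.85 and -0.16 for all genes tested. All 200 stayed at least 2-fold lower in muscle under both. Full separation from all 43 other libraries was kept by 166 members after rescaling and by 58 after quantile normalization. Over all identifiers, 1232 were so separated as deposited, 760 after rescaling and 265 after quantile normalization, so the loss was not confined to the members.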

How the data were processed

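RNA was extracted with Trizol and RNeasy columns and sequenced as paired reads from TruSeq libraries, as the labels' protocols state. Trimmomatic 0.39, STAR, Cufflinks and the UMD3.1 assembly appear, with no order or settings, in the submitters' processing notes. The authors deposited 1 table of FPKM, of which 47 columns were matched to samples and 4 were left out. Male A's muscle column has 1 letter more than that sample's title. The reference table holds no Ensembl identifiers, so the name-based gene lists could not be applied and no sequence is shown. Between libraries, the commonest ratio of low values held only 0.755% to 2.96% of genes, so no depth was taken from it.

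The members and lists were chosen with earlier results of these data known. On log2(FPKM + 1), limma 3.58.1 (R 4.3.3, intensity trend, Benjamini-Hochberg) gave linear models of the genes that reached 1 FPKM in 2 or more libraries, over 43 libraries for tissues and 40 for sex. On simulated data with 200 genes changed by 2 on the log2 scale, 99% were recovered for heart against the other labels (16582 genes) and 91% for sex in muscle (16503 genes). False calls were 0 and 14. The changed genes were drawn only from those above a set mean level, and the noise was independent between libraries. In the heart simulation all other genes were given no difference between labels. In the real heart comparison 13453 of 16582 genes had an unadjusted limma p under 0.05, so the 99% and the 0 false calls need not hold there. The members had a median muscle mean of 1.31 FPKM, so the 91% need not hold for them. Python 3.11.15, numpy 2.4.6 and pandas 2.3.3 were used.

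Tissues come from the same animals, and the animal numbers in the labels link them. The main models had no term for the animal and treated libraries of one animal as independent. Only the replicate block setting, for tissues, included the animal. Libraries of one animal deviated together (median correlation 0.182 over 45 tissue pairs, against -0.063 between animals). The rule for named genes allowed 4 identifiers without symbols: the 2 largest ratios, and the largest called heart difference in each direction. Others given by rank were chosen after their values were seen. Alternatives were the pseudocount, filter, scaling, animal block, minimum difference and the libraries used.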

Additional observations from a re-analysis of the deposited data

Results flagged for a closer look

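Of 24 groups of 4 libraries checked for a single distant value (the members' share of FPKM in 10 labels, 10 members in muscle and 4 in heart), 1 stood out by Dixon's criterion. The member of rank 2 had 15.3 FPKM in the muscle of male B, against 9.40 to 9.55 FPKM in the other 3 animals. Chance flags about 1 in 20 such groups.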

How the results depend on the processing

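Of 282 counts of members higher or lower in a tissue under another setting, 246 stayed within 1.5 times the reported count. The rest mostly come from a minimum difference of 2 on the log2 scale, which by construction lowers all counts: heart 65 lower, ileum 64 higher, lung 40 higher and 0 lower, spleen 5 lower, adipose tissue 0 higher and 13 lower, frontal cortex 14 and 27, kidney 15 and 26, liver 17 and 12, ovary 8 and 4, rumen 13 and 14, uterus 5 and 3. Quantile normalization gave lower members of 5 in ileum, 28 in liver (36 higher, so that liver's balance turned round), 9 in lung and 16 in spleen, 0 sex calls in heart, 82 members 2-fold lower in lactation, and 58 of the 200 chosen again. Rescaling gave 9 higher in adipose tissue and 18 sex calls in heart, and a pseudocount of 0.1 gave 20 sex calls in heart and 1 in muscle. Without the libraries that lack traces there were 3 higher in adipose tissue, 1 lower in ileum, 41 lower in ovary and 57 lower in uterus, and sex calls of 9 in adipose tissue, 1 in heart and 16 in ileum. A minimum difference of 1 left sex calls of 4 in adipose tissue, 1 in heart and 36 in ileum. With the 9 tissues of all 4 animals, 3 members were lower in ileum, and 1 without the lymphocyte library. With the animal as a replicate block and without that library, 2 were lower in ileum, 173 in heart, and no other count moved by over 1.5 times. Leaving out each animal gave 2 to 7 higher in adipose tissue, 0 to 1 lower in ileum, 2 to 5 lower in lung, and sex calls of 7 to 29 in adipose tissue, 0 to 23 in heart, 13 to 81 in ileum and 0 to 1 in muscle and in muscle against the other tissues. The median of the label means chose 98 of the 200 again. A choice made without lymphocytes and spleen, added after seeing the data, kept 139. Outside the 10 most abundant genes the members held 0.319% in muscle, 1.07% in heart and 7.09% in spleen. Except where the construction shows it, the cause was not tested. These counts are of members only, without the shares of all genes under each setting. With no fragment counts, counting error at these low levels cannot be given.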
